A study of Arabidopsis thaliana with 6 samples.

Results

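The genes examined were 10 of chlorophyll synthesis in Arabidopsis thaliana, chosen by gene identifier among the 33489 genes of the count tables: HEMA1, GUN4, GUN5, CHLI1, CHLD, CHLM, CRD1, PORA, PORB and PORC. All 10 were listed in the tables. Polyadenylated RNA had been sequenced from whole seedlings grown for 14 days on plates, in 3 samples of the double mutant zdp-1 ape2-2 (joined as zdp-1ape2-2 in the sample titles) and 3 samples of the wild type Col-0. The labels call the mutant a knockout of ZDP, which encodes a DNA 3' phosphatase, and of APE2, which encodes an apurinic/apyrimidinic endonuclease. They name no treatment, and each group carries no other allele in its labels.

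Chlorophyll is made in plastids from glutamate. Glutamyl-tRNA reductase, encoded by HEMA genes, commits glutamate to 5-aminolevulinic acid, from which protoporphyrin IX is built, and there the path divides: ferrochelatase inserts iron to give heme, while magnesium chelatase inserts magnesium and leads to chlorophyll. In the magnesium branch a methyltransferase and a cyclase shape the ring, a light-dependent oxidoreductase (POR) turns protochlorophyllide into chlorophyllide, and chlorophyll synthase adds the phytol tail. The enzymes are encoded in the nucleus, and their genes are known to be driven by light and by the GLK transcription factors in green tissue.

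Library totals were 37154781 to 37241739 counts in the mutant and 31190605 to 37222185 in Col-0, and the 10 most abundant genes took 6.52% to 6.56% and 7.89% to 8.03% of them. ZDP transcripts stood at 60.9% of the Col-0 level in the mutant and APE2 transcripts at 70.3%, so both targeted genes were lower but still counted. Whole seedlings mix shoots and roots: of 12 root markers none was at 0, and their summed level was 129 to 137 CPM in the mutant and 140.1 to 144 CPM in Col-0. CPM gives the normalised count: reads per 1e6 reads of a library whose size was scaled by TMM, a method that sets the bulk of genes equal between libraries. The labels do not say that samples of a group came from separate cultures, and p-values therefore speak for the spread of these 6 samples alone, possibly a technical one.

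Of the 10 genes 9 were lower in zdp-1 ape2-2, and the other, GUN4, could not be assessed. Genes were called at an adjusted p below 0.05 in the edgeR quasi-likelihood test, and 43.4% of all 21182 tested genes were called in either direction, 21.2% lower and 22.2% higher. Those were 4498 lower and 4699 higher genes, against 2717 lower and 6964 higher when scaled by library totals alone, under which 9 of the 10 were lower as well. Of the 1815 genes averaging 100 CPM or more, a range that holds 8 of the 9, 42.5% were called lower, and their log2 fold changes had a median of -0.03. None of the 10 was called higher, by edgeR or by DESeq2, and none was higher at an unadjusted p below 0.05. For 9 genes the 3 mutant values all lay below the 3 Col-0 values, an order found for 24.8% of all tested genes. The falls were small: besides PORA, which fell by 35.5%, the means were 9.16% to 22.2% lower, and the median log2 fold change of the 10 genes was -0.27, against 0.00 for all tested genes. The 8 abundant genes were measured with coefficients of variation of at most 2.74% in the mutant and 1.51% in Col-0.

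**Figure D1:**
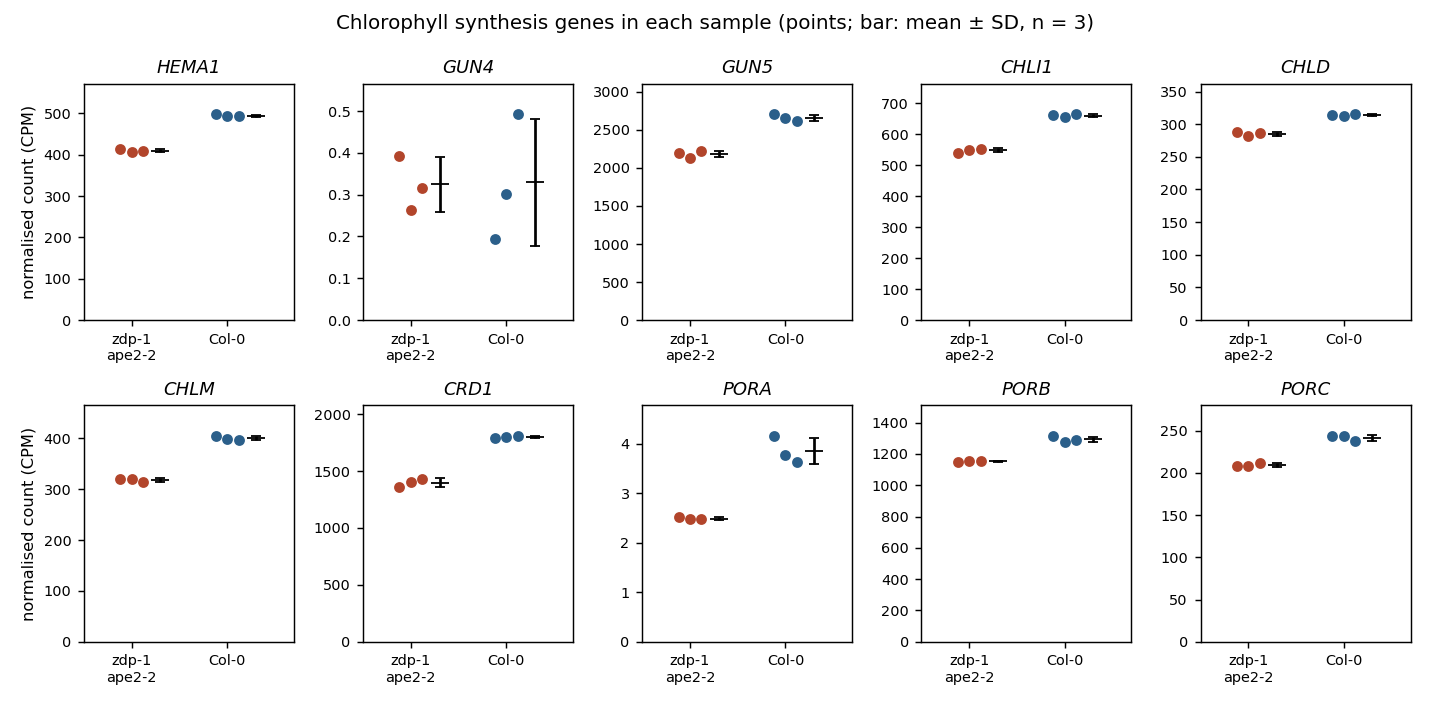
Normalised count (CPM, vertical axes from 0) of each gene in the 3 samples of zdp-1 ape2-2 (left, red) and the 3 of Col-0 (right, blue), with the mean ± SD beside the points. In all panels but that of GUN4 the mutant points lie below the Col-0 points, with PORA at about 2.5 CPM in the mutant and GUN4 below 0.5 CPM throughout.

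HEMA1 (AT1G58290, chromosome 1, 21623700 to 21626402) encodes the main glutamyl-tRNA reductase of green tissue, the step that commits glutamate to the pathway. It had 413, 407 and 410.0 CPM in the mutant, against 497, 493 and 493 CPM in Col-0. The groups were well apart and the samples of each lay within a few CPM. The log2 fold change was -0.27 ± 0.02 (SE), with an edgeR adjusted p of 1.60e-13, on 15049 to 17999 counts per library.

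GUN4 (AT3G59400, chromosome 3, 21948501 to 21949796) encodes a porphyrin-binding protein that stimulates magnesium chelatase. It had 15, 10 and 12 counts in the mutant libraries and 7, 11 and 15 in those of Col-0. Exons of AT3G59410 on the opposite strand cover 946 of its 1296 exon bases, or 73.0%. Whether the counting used strand is not given in the sources used here, and LHCB1.5, a gene wholly covered by exons of others, had 0 counts in every library. The GUN4 count is therefore no measure of its transcript level, and its log2 fold change of 0.02 ± 0.36 (edgeR adjusted p = 0.975) bears on neither direction. AT3G59410 itself had 30.5 ± 0.85 CPM in the mutant and 31.4 ± 1.19 CPM in Col-0 (SD, n = 3 each).

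Magnesium chelatase has a large porphyrin-binding subunit, encoded by GUN5, and a pair of motor subunits of types I and D. GUN5 (AT5G13630, chromosome 5, 4387307 to 4392429) had 2190.5, 2136 and 2225 CPM in the mutant, against 2704, 2659 and 2624 CPM in Col-0, with a log2 fold change of -0.29 ± 0.02 (edgeR adjusted p = 1.88e-14). CHLI1 (AT4G18480, chromosome 4, 10201672 to 10203469), the main gene for subunit I, had 540.1, 550.0 and 552 CPM in the mutant and 661, 654 and 663 CPM in Col-0 (-0.27 ± 0.02, edgeR adjusted p = 1.46e-13). The falls of these 2 subunit genes were alike in size, and that of the third was smaller. With GC and length offsets GUN5 fell less than CHLI1, at -0.23 against -0.28. CHLD (AT1G08520, chromosome 1, 2696381 to 2701022), for subunit D, had 288, 281 and 286 CPM in the mutant and 315, 312 and 315 CPM in Col-0. Its log2 fold change was -0.14 ± 0.02 (edgeR adjusted p = 2.80e-06), and -0.07 when scaled by library totals alone, still called.

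After magnesium is in place, CHLM (AT4G25080, chromosome 4, 12876822 to 12878703) encodes the methyltransferase of magnesium protoporphyrin IX. It had 319.6, 321 and 313 CPM in the mutant, against 404, 399 and 397 CPM in Col-0, a log2 fold change of -0.33 ± 0.02 (edgeR adjusted p = 1.38e-15). CRD1 (AT3G56940, chromosome 3, 21076505 to 21078443), also known as CHL27, encodes the catalytic subunit of the cyclase that closes the fifth ring. CRD1 had 1358, 1406 and 1434 CPM in the mutant and 1791, 1797 and 1806 CPM in Col-0 (-0.36 ± 0.02, edgeR adjusted p = 3.44e-17). It had the smallest p of the 10 genes. CHLM, CRD1 and PORA were the 3 that also passed a test against a 1.2-fold change, by which 3.14% of all tested genes were called lower. Exons of other genes cover 12.9% of the CRD1 exons and 7.2% of those of CHLI1, and at most 4.3% of those of the other called genes.

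The POR genes encode the enzyme that reduces protochlorophyllide, which in flowering plants needs light. PORA is known as the form of dark-grown seedlings that wanes in light, while PORB and PORC serve green tissue. PORA (AT5G54190, chromosome 5, 21990864 to 21992814) had 2.52, 2.47 and 2.48 CPM in the mutant, against 4.15, 3.78 and 3.64 CPM in Col-0. These were 94 to 96 counts per mutant library and 111 to 150 per Col-0 library. The log2 fold change of -0.63 ± 0.11 (edgeR adjusted p = 1.12e-05) was the lowest of the 10, with the widest error of the 9 called.

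PORB (AT4G27440, chromosome 4, 13725546 to 13727440) had 1145, 1157 and 1153 CPM in the mutant and 1313, 1279 and 1289 CPM in Col-0. Its log2 fold change was -0.17 ± 0.02 (edgeR adjusted p = 1.13e-08), and -0.10 when scaled by library totals alone, still called. PORC (AT1G03630, chromosome 1, 907523 to 909650) had 208, 208 and 212 CPM in the mutant and 243, 244 and 238 CPM in Col-0 (-0.20 ± 0.02, edgeR adjusted p = 2.00e-09). The groups did not overlap for any of the 3 POR genes.

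PORA and PORB are close relatives, and since PORA had so few reads beside PORB, the stretch where they are most alike is shown. Aligned over 1504 exon bases they are 77.7% identical, against 69.2% for PORA with PORC and 70.5% for PORB with PORC. At the start codon the coding bases of both genes run almost in step for 54 bases, with 1 difference, given in capitals (reference TAIR10.1, each on its own coding strand, chr5:21992720-21992773 on the minus strand and chr4:13725648-13725701 on the plus strand).
PORA: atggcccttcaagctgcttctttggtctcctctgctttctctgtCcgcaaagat
PORB: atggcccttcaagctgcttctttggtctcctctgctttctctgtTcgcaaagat
The longest run of identical bases between their exons is 48. Neither the read length nor how multiply aligned reads were counted is given in the sources used here, so some reads may be shared. PORB had 39316 to 47417 counts per library and PORA 94 to 150. A small part of the PORB reads could thus be a large part of the PORA count, and how much was shared was not tested. In a search with the exons of each gene, matches elsewhere of at least 90% identity and 50 bases covered 10.47% of the exons of HEMA1, in HEMA2, and 2.01% of those of CHLD. PORB had a match of 59 bases in PORA, 3.6% of its exons, so that PORA holds this stretch too. For GUN4, GUN5, CHLI1, CHLM, CRD1 and PORC the search listed none.

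Per exon length, CRD1 and PORB were the most abundant of the 10. In FPKM, the CPM per kilobase of exon, CRD1 averaged 937 ± 25.7 in the mutant and 1204 ± 5.03 in Col-0 (SD, n = 3 each), PORB 702 ± 3.52 and 788 ± 10.8, GUN5 459 ± 9.47 and 559.6 ± 8.45, and CHLI1 340.4 ± 3.93 and 410.2 ± 2.83. CHLM averaged 186 ± 2.33 FPKM in the mutant and 234 ± 2.22 FPKM in Col-0, HEMA1 177 ± 1.1 and 214 ± 1.01, PORC 117 ± 1.2 and 135 ± 1.87, and CHLD 108 ± 1.36 and 119 ± 0.57. PORA was far below these, at 1.5 ± 0.01 FPKM in the mutant and 2.32 ± 0.16 FPKM in Col-0. The order from CRD1 to PORA was the same in both groups, and neighbours in it did not overlap over the 3 samples of either group.

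**Figure D2:**
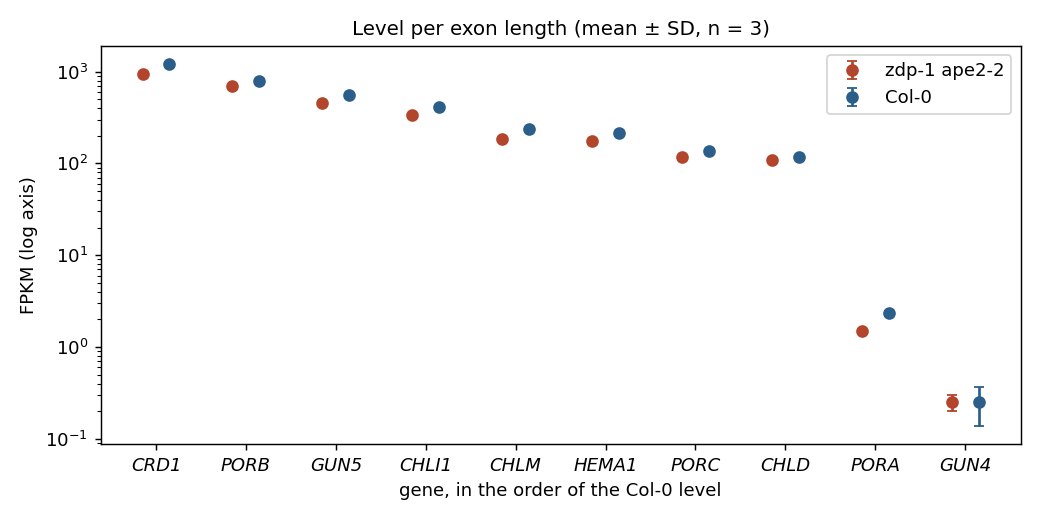
FPKM (log axis, mean ± SD, n = 3) of the 10 genes in zdp-1 ape2-2 (red, left of each pair) and Col-0 (blue, right), in the order of the Col-0 mean. CRD1 stands highest at 937 FPKM in the mutant and 1204 FPKM in Col-0, and PORA and GUN4 lie below 3 FPKM.

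The balance among the genes was compared within each library. Of the summed FPKM of the 3 POR genes, PORB made up 85.5% ± 0.13 in the mutant and 85.1% ± 0.22 in Col-0 (SD, n = 3 each), PORC 14.3% ± 0.13 and 14.6% ± 0.22, and PORA 0.183% ± 0.0026 and 0.251% ± 0.014. All 3 shares were apart between the groups, PORB higher and the others lower in the mutant. Relative to GUN5 in the same library, the log2 ratio of CHLD was -2.08, -2.08 and -2.11 in the mutant and -2.26, -2.24 and -2.21 in Col-0, a difference of 0.15. The ratio of CRD1 to GUN5 was lower by 0.08, with no overlap, while HEMA1, CHLI1 and CHLM had differences of 0.02, 0.02 and -0.04 with overlapping groups. The ratios were taken without GC and length offsets, and with these the log2 fold change of GUN5 was -0.23 instead of -0.29. HEMA1 (-0.26) and CHLI1 (-0.28) then fell more than GUN5, so the sign of their differences depends on the offsets. CRD1 was at -0.37, CHLM at -0.33 and CHLD at -0.12. Exact two-sided permutation tests gave p = 0.1 for the 3 POR shares and for CHLD and CRD1, the smallest that 3 against 3 samples allow, and p = 0.18 after Benjamini-Hochberg adjustment over 9 such comparisons, so none of them passed.

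**Figure D3:**
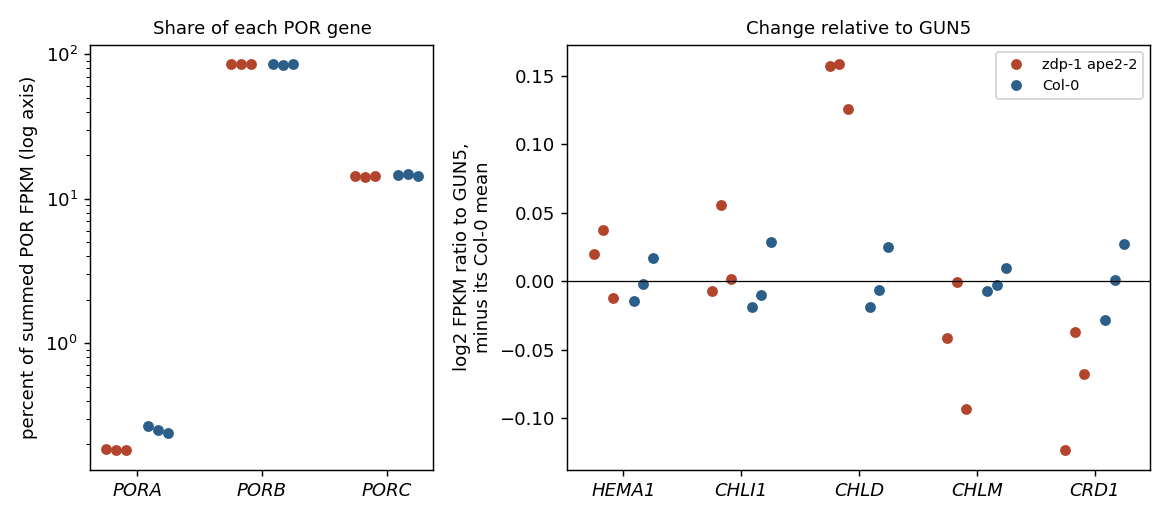
Left, the percent of the summed POR FPKM held by each POR gene (log axis); right, the log2 FPKM ratio of HEMA1, CHLI1, CHLD, CHLM and CRD1 to GUN5 in the same library, minus its Col-0 mean. Points are samples, zdp-1 ape2-2 in red on the left of each pair and Col-0 in blue on the right; CHLD lies about 0.15 above its Col-0 mean in the mutant, and the PORA share is 0.183% in the mutant and 0.251% in Col-0.

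Because 9 genes fell together, the 250 bases before the annotated start of each of the 10 were searched on both strands for 3 motifs, and the stretches around selected matches are shown. The G-box CACGTG, a site of light-responsive factors such as HY5 and the PIF proteins, was found in CRD1 alone, and in 6.49% of 27431 protein-coding genes in windows of that length. The evening element AAAATATCT, known from evening-phased genes of the circadian clock, was found in PORA and PORB, against 2.36% of all, and CCAATC in GUN4 and PORB, against 10.2%. No matches overlapped each other. The windows of PORA and PORB hold a block of 100 bases each (TAIR10.1, chr5:21992896-21992995, minus strand, and chr4:13725403-13725502, plus strand) in which 78 of 96 aligned bases are identical. It begins 1 base before the evening element, in capitals, and ends 82 bases before the start of PORA and 44 before that of PORB. No other pair of the 10 windows aligned over more than 50 bases.
PORA: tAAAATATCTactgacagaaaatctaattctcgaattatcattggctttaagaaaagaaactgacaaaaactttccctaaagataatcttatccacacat
PORB: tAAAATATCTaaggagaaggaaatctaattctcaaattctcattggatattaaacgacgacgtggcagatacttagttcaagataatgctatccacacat
The G-box of CRD1, in capitals, lies 52 to 47 bases before its start (TAIR10.1, chr3:21076413-21076498, plus strand).
CRD1: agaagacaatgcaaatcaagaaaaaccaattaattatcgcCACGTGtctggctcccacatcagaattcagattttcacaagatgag
A match describes the letters only. Genes with and without each motif were among those that fell.

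Other genes of the magnesium branch were lower too. All 6 of them were called, against 21.2% of all tested genes called lower and 42.5% of those averaging 100 CPM or more. None of the 6 was higher by DESeq2 or at an unadjusted p below 0.05, and their median log2 fold change was -0.25. Scaled by library totals alone 5 were called lower, and in the test against a 1.2-fold change 0. CHLP, which encodes the geranylgeranyl reductase that makes the phytol tail, had 1388 ± 13.0 CPM in the mutant and 1706 ± 11.9 CPM in Col-0 (-0.30 ± 0.02, edgeR adjusted p = 2.34e-15). CAO, for the oxygenase that makes chlorophyll b, had a log2 fold change of -0.26 ± 0.02, and CHLG, for chlorophyll synthase, -0.25 ± 0.02. CHLI2, the second gene for subunit I, had 99.0 ± 1.39 CPM in the mutant and 114 ± 1.14 CPM in Col-0, with -0.20 ± 0.03. DVR had -0.26 ± 0.03 and YCF54, a partner of the cyclase, -0.09 ± 0.03. Exons of neighbouring genes on the opposite strand cover 16.2% of the exons of CHLP and 18.7% of those of YCF54.

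Upstream, 9 of 13 tested genes of the steps to protoporphyrin IX were lower and 1 higher, against 21.2% and 22.2% of all tested genes. The median log2 fold change of these 13 was -0.14. HEMB2 had too few counts to be tested. The smallest p values among them belonged to HEME1 (-0.31 ± 0.02) and HEME2 (-0.27 ± 0.02), for uroporphyrinogen decarboxylase, and PPOX1 (-0.23 ± 0.02), for protoporphyrinogen oxidase. The higher one was HEMA3, a minor glutamyl-tRNA reductase gene, and 2 were called higher without mutant replicate C. In the test against a 1.2-fold change 0 were lower, and 6 were when scaled by library totals alone.

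In the branches to heme, bilins and siroheme the differences were mixed. Of 9 tested genes 4 were lower and 1 higher, with a median of -0.09, where 21.2% of all tested genes were called lower and 22.2% higher. The number of the 9 called higher was 3 when scaled by library totals alone or by upper quartiles. It was 2 with a minimum of 1 CPM in 3 samples and without mutant replicate B. With GC and length offsets it was 2 as well, with or without the replicate block. The median was -0.03 under the minimum of 1 CPM and -0.02 with library totals alone. The higher one, HO3, was at 1.05 ± 0.13, and among the lower was HO4 at -0.79 ± 0.32 (edgeR adjusted p = 0.0447), not called in 9 of 15 alternative fits. FC2, for the ferrochelatase of green tissue, had 103 ± 1.05 CPM in the mutant and 115 ± 2.86 CPM in Col-0 (-0.15 ± 0.03, edgeR adjusted p = 8.82e-06), and HO1, the main heme oxygenase gene, had -0.14 ± 0.03. FC1, the other ferrochelatase gene, had 0.07 ± 0.03 and was not called. Whether the branches differ from the 10 genes was not tested.

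**Figure D4:**
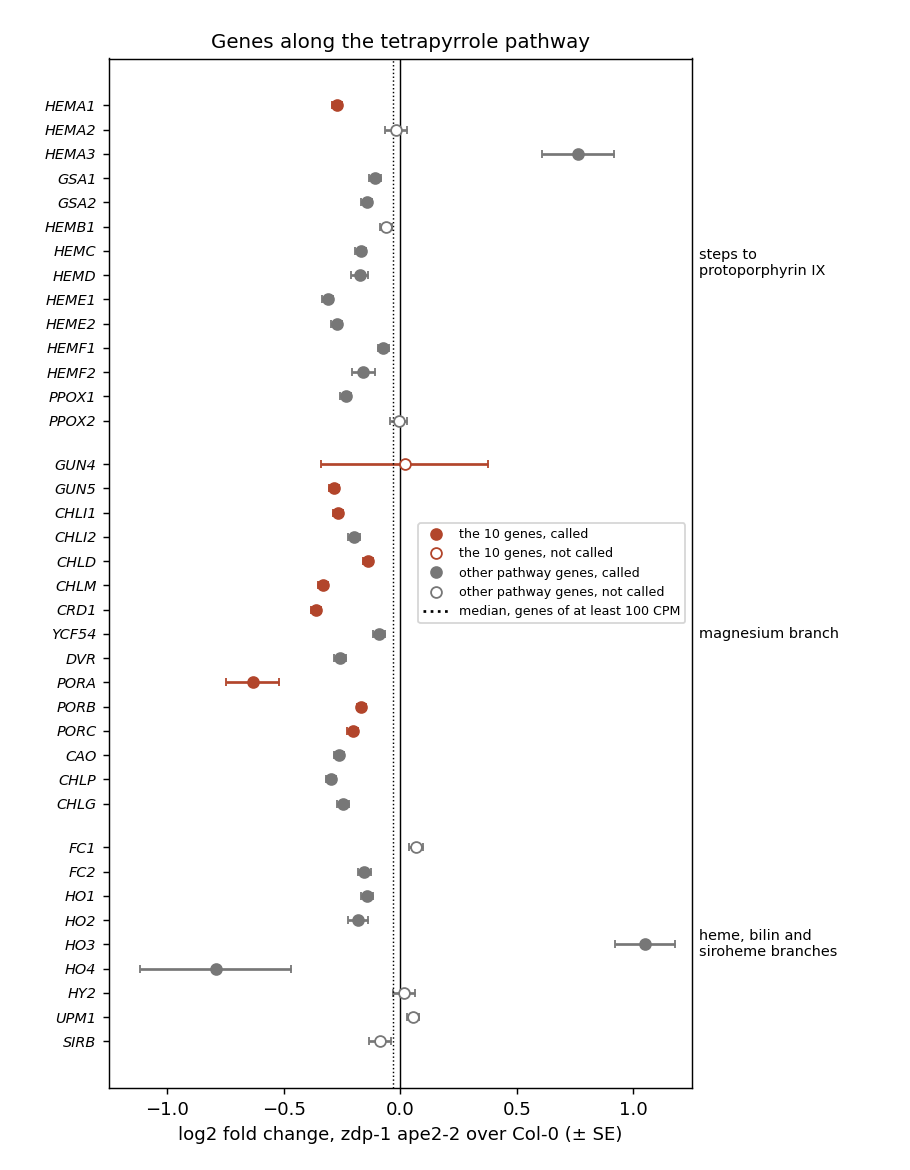
Log2 fold change of zdp-1 ape2-2 over Col-0 (± SE) for tested genes in pathway order, with the 10 genes in red and others in grey, filled where called and open where not; the dotted line is the median of genes of at least 100 CPM, -0.03. The called genes among the 10 and the other genes of the magnesium branch all lie left of 0, while HEMA3 (0.76) and HO3 (1.05) lie to the right.

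All 7 genes for proteins that steer the enzymes were lower, against 21.2% of all tested genes. None of the 7 was higher by DESeq2 or at an unadjusted p below 0.05, and their median was -0.20. LIL3.1, which encodes an anchor of the late enzymes in the thylakoid membrane, had a log2 fold change of -0.28 ± 0.02, NTRC, for a thioredoxin reductase that keeps enzymes of the pathway reduced, had -0.27 ± 0.02, and AT2G35260 had -0.29 ± 0.03. In the test against a 1.2-fold change 0 of the 7 were called. Exons of other genes cover 28.2% of the exons of LIL3.1 and 33.0% of those of BCM2, also among the 7.

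Of 19 regulators linked to light and the plastid, 13 were lower and 1 higher, against 21.2% and 22.2% of all tested genes. DESeq2 called 10 of the 19 lower and 0 higher, and with library totals alone 9 were lower. The median of the 19 was -0.15. GLK1, a transcription factor that drives genes of chlorophyll synthesis and light harvesting, had 114 ± 1.08 CPM in the mutant and 161 ± 2.50 CPM in Col-0. Its log2 fold change of -0.50 ± 0.03 (edgeR adjusted p = 2.34e-19) had the smallest p of the list. GLK2, which overlaps with it in function, had 144 ± 1.49 CPM in the mutant and 172 ± 1.82 CPM in Col-0 (-0.25 ± 0.02), and FAR1, a factor of phytochrome A signalling, had -0.34 ± 0.04. The higher one was PIF3, a repressor of greening in the dark, at 0.14 ± 0.05 (edgeR adjusted p = 0.0255), which DESeq2 did not call. It was not called either without Col-0 replicate A, mutant replicate A or mutant replicate C.

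Of 11 tested genes of chlorophyll breakdown, 5 were higher and 1 lower, with a median of 0.10, where 22.2% of all tested genes were called higher and 21.2% lower. Exons of another gene cover 71.5% of the exons of CLH2, which had 29 to 47 counts per library. It was kept among the 11 and not called. CLH1, for a chlorophyllase, had 67.7 ± 1.41 CPM in the mutant and 48.6 ± 1.14 CPM in Col-0 (0.48 ± 0.03, edgeR adjusted p = 1.18e-15). SGR2, a stay-green gene, had 3.82 ± 0.16 CPM in the mutant and 2.05 ± 0.15 CPM in Col-0 (0.89 ± 0.12). SGRL, a more distant relative of the stay-green genes, was the lower one, at -0.41 ± 0.03.

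Light-harvesting proteins bind most of the chlorophyll. All 17 tested genes of this kind were lower by edgeR and 16 by DESeq2, with a median of -0.36. By edgeR 21.2% of all tested genes were lower, and 42.5% of those averaging 100 CPM or more. LHCB1.1 had -0.53 ± 0.02, LHCB1.4 had -0.45 ± 0.02 and LHCB2.2 had -0.44 ± 0.02, though close copies can share their reads. Exons of another gene cover 40.6% of the exons of LHCB2.3, also among the 17.

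All 6 leaf markers were lower, as the 9 genes were, against 42.5% of all genes averaging 100 CPM or more. RBCS2B was at -0.51 ± 0.03, RBCS3B at -0.49 ± 0.03 and RBCS1A at -0.26 ± 0.02. None of the 6 was at 0, and their summed level was 25993 to 26635 CPM in the mutant and 31882 to 32438 CPM in Col-0, 18.2% lower on average. The summed level of the 10 genes was 6466 to 6589 CPM in the mutant and 7829 to 7933 CPM in Col-0, 17.3% lower. Of the 12 root markers 3 were lower and none higher by edgeR or DESeq2, where edgeR called 21.2% of all tested genes lower. At an unadjusted p below 0.05 1 was higher, and 1 was with library totals alone. Their median was 0.01, and their summed level was 128.8 to 136.6 CPM in the mutant and 140.1 to 143.9 CPM in Col-0, 7.62% lower on average. Exons of another gene cover 84.3% of the exons of ESB1, which was kept among the 12 and not called. FRO2 had -0.55 ± 0.07, CASP1 -0.34 ± 0.05 and IRT1 -0.26 ± 0.05. In whole seedlings, fewer green cells and less RNA per cell cannot be told apart, and the part of tissue make-up in the lower levels was not tested.

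**Figure D5:**
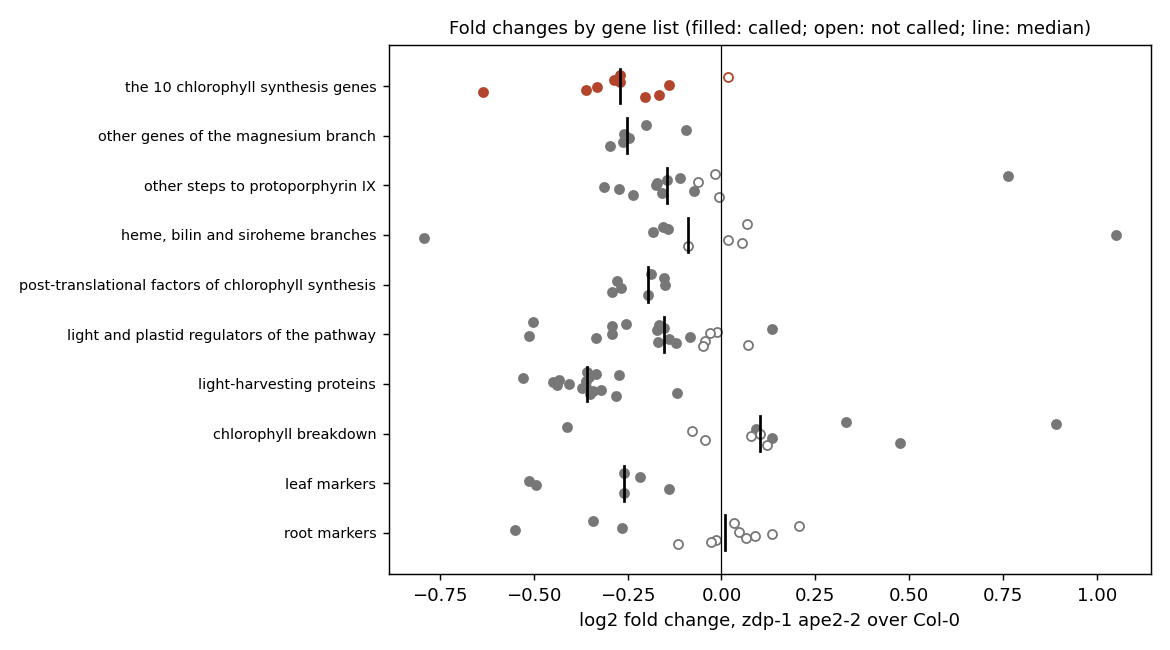
Log2 fold change of zdp-1 ape2-2 over Col-0 for every tested gene of each list, filled where called and open where not, with a vertical line at the list's median. The medians are -0.27 for the 10 genes, -0.25 for the other magnesium branch genes, -0.36 for light-harvesting proteins, 0.10 for breakdown and 0.01 for root markers.

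By the profile over the 6 samples, the genes most like HEMA1 among 12760 genes averaging 10 CPM or more were AT2G36490 (ROS1, a DNA demethylase gene), PHOT1, for a blue light receptor, and MSRB6, with a Pearson r of log2 CPM of 0.9997, 0.9997 and 0.9996. Their log2 fold changes were -1.04, -0.35 and -0.74. For GUN5 the nearest were AT5G23280, FAO3 and AT2G25050, and for PORC they were CHX20, SCO1 and AT3G28040. As many as 1531 genes had an r above 0.95 with HEMA1, 1420 with GUN5 and 1392 with PORC. These profiles share the difference between the groups, and only 6 libraries stand behind them.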

How the data were processed

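The authors deposited 1 table of raw whole-number read counts per gene for each sample, with exon coordinates and exon length per the file headers. Reads were aligned with STAR to TAIR10, per the submitters' processing notes. How genes were counted, and whether by strand, is not given in the sources used here. All 33489 identifiers matched the TAIR10.1 reference, and the 10 genes had the same coordinates there. Groups came from the sample titles. Tests used edgeR 4.0.16 in R 4.3.3 (filterByExpr, TMM, quasi-likelihood F test, all 6 samples, genotype as the only term, two-sided, Benjamini-Hochberg adjustment over 21182 genes). The common biological coefficient of variation was 1.99%. The SE was taken as the absolute log2 fold change over the root of F. The procedure was tested on simulated data with few changed genes and the same coefficient of variation for every gene. The data here differ in both, so that test does not vouch for the calls or the scaling. Alternatives included DESeq2 1.42.0, other scalings and filters, GC and length offsets, and leaving out each sample. Copies were sought with BLAST 2.17.0. Replicates differed by more than sampling noise, with a chi-square of 1.55 to 1.92 per gene over the pairs within groups. A single read stood for 0.0262 to 0.0328 CPM, depending on the library.

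The 10 genes, the lists and the rule for named genes were chosen with earlier results of these data known. Named genes were all 10, GLK1, GLK2, CHLI2, CHLG, CAO and CHLP, and from each other list up to 3 called genes with the smallest p. DVR, YCF54, FC1, HEMA3, PIF3, HO4 and HEMA2 were added after their values were seen. CLH2, ESB1, BCM2 and LHCB2.3 are named only for the exons of other genes that cover theirs. The 3 genes for likeness (HEMA1, GUN5 and PORC) and the 3 motifs were chosen with the lists.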

Additional observations from a re-analysis of the deposited data

How the results depend on the processing

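Over 16 alternative fits, CHLM, CRD1 and PORA stayed called lower throughout. HEMA1, GUN5, CHLI1, CHLD, PORB and PORC lost the call under 2 of them: 3 of the 10 genes were called lower with an assumed coefficient of variation of 0.1 and 3 in the test against 1.2-fold, and the falls of these 6 are near or under 1.2-fold (0.26 on the log2 scale). Across all genes the coefficient of 0.1 left 1668 higher and 760 lower, of which the lower share is 3.59% of those tested, and the test against 1.2-fold left 1476 and 665. Called lower with the coefficient of 0.1 and in the test against 1.2-fold were 0 and 0 of the other magnesium branch genes, of the steps to protoporphyrin IX, of the heme, bilin and siroheme branches and of the proteins that steer the enzymes. The counts were 2 and 1 of the regulators, 13 and 14 of the light-harvesting genes, 2 and 2 of the leaf markers and 1 and 1 of the root markers. Of the breakdown genes 2 and 2 were higher. Scaling by library totals alone called 2717 genes lower, and the median log2 fold change of all genes moved to 0.07. GUN4, never called, changed sign: -0.00499 with DESeq2, -0.00231 with GC and length offsets and the replicate block, and -0.26 to 0.38 when single samples were left out. It was not tested under the minimum of 1 CPM in 3 samples. The labels do not say that the replicate letters pair the samples. Deviations of same-lettered samples had correlations of -0.023, 0.069 and -0.005 over 12746 genes, which do not settle whether they were paired. Mutant sample B had its highest correlation with its own letter. That of mutant sample A was with Col-0 sample B (0.018) and that of mutant sample C with Col-0 sample A (0.087). With the replicate block 9 of the 10 genes were lower, and 4830 genes were higher and 4620 lower in all. Of the 9 genes that could be assessed, PORA had the lowest counts and the widest error.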

Other observations

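Among low-abundance copies of enzymes in the pathway, singled out after their values were seen, HEMA3 and HO3 were higher in the mutant. HEMA3 had 2.18 ± 0.15 CPM in the mutant and 1.29 ± 0.19 CPM in Col-0 (SD, n = 3 each), a log2 fold change of 0.76 ± 0.16 (edgeR adjusted p = 9.98e-05), and all 3 mutant samples lay above those of Col-0. HEMA1 fell by 0.27 on the log2 scale, and HEMA2 had -0.02 ± 0.05 and was not called. HO3, a heme oxygenase gene, had 3.67, 3.55 and 3.28 CPM in the mutant and 1.83, 1.67 and 1.54 CPM in Col-0 (1.05 ± 0.13, edgeR adjusted p = 7.46e-09), and the groups did not overlap. Separate groups were not rare: the opposite order, all 3 mutant values below those of Col-0, was found for 24.8% of all tested genes. The share with all 3 above was not counted. HEMA3 and HO3 were called higher in all 16 alternative fits. HO4, a further heme oxygenase gene, was near the threshold, with 14, 8 and 11 counts in the mutant and 23, 18 and 11 in Col-0 (-0.79 ± 0.32, edgeR adjusted p = 0.0447), and its groups overlapped. It was called in 6 of the 15 alternative fits that tested it, with adjusted p from 0.0228 to 0.248 (edgeR and DESeq2), and was not called by DESeq2, with library totals alone, without a filter on low counts, or without Col-0 replicate A, Col-0 replicate B, mutant replicate B or mutant replicate C.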
